A study of Mus musculus with 8 samples.

Results

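A small set of genomic intervals collected far more chromatin loops than the rest in Hi-ChIP of mouse pancreatic cancer cells. Hi-ChIP pairs proximity ligation of chromatin with immunoprecipitation, so that each read pair joins fragments that lay close together at a site bound by the chosen protein. The intervals that form the ends of loops are called anchors. Anchors with 80 or more loops, summed over the 4 loop lists of the series, are called hub anchors here. There were 863 of them among 30542 anchors (2.83%).

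The 4 lists came from FOXA1 and HNF4G Hi-ChIP in a cell line from a KPC primary tumor and in the cell line from the matched liver metastasis (liver mets). KPC mice carry engineered mutations that give rise to pancreatic cancer. The labels give tumour or liver metastasis cell line as the tissue, WT as the genotype and no treatment, and all cells were grown in culture in DMEM with serum, so that each line stands for 1 tumor or metastasis. Each group had 2 replicates and 1 list covering both, so that no value per replicate was used, no test between groups could be run and all intervals given cover counting error only. For FOXA1 there were 125623 listed loops from liver mets and 104136 from tumor, and for HNF4G 78098 and 76323. Where 4 counts are given together they stand in this order of the lists. Read depth behind the loops is unknown.

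FOXA1 is a forkhead pioneer factor that can bind nucleosomal DNA, and HNF4G is a nuclear receptor of the HNF4 family. Both act in epithelia of endodermal origin. Enhancers and promoters meet through loops formed by cohesin and its barrier CTCF or through factors bound at both ends, and anchors that meet many others are usually referred to as hubs. The labelled cell type was checked on marker genes. Of 10 acinar genes none had an anchor within 2 kb of a transcription start, and this was so for 9 of 12 hepatocyte genes, 8 of 10 fibroblast genes and 9 of 10 leukocyte genes. Of 18 keratin and junction genes of simple epithelium, 16 had such an anchor, as had 10785 of all 21728 protein-coding genes. So had 11 of 12 mesenchymal transition genes and 14 of 14 cell cycle genes. The presence of an anchor therefore does not tell epithelial from mesenchymal cells.

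A few stretches of sequence from the hubs that the results below turn on are shown first. They come from the GRCm38.p6 assembly (mm10) and avoid annotated exons. Capitals mark matches, on either strand, to 4 short motifs, which are TGTTTAC for FOXA proteins, CAAAGTCCA for HNF4, AGGGGGCGC or AGGTGGCAG for the core of the CTCF motif and TGANTCA for AP-1. None of the 4 motifs contains another. A match describes the letters and not a bound site. Ehbp1l1 is shown because its anchor had the most loops, Lasp1 because its anchor led chromosome 11, and Cbx8 because its anchor had the most loops of the HNF4G tumor list. The first are RefSeq promoter bases upstream of the start, on the minus strand for Ehbp1l1 (chr19:5726318-5726567) and Cbx8 (chr11:119040970-119041163) and on the plus strand for Lasp1 (chr11:97799315-97799564).
Ehbp1l1: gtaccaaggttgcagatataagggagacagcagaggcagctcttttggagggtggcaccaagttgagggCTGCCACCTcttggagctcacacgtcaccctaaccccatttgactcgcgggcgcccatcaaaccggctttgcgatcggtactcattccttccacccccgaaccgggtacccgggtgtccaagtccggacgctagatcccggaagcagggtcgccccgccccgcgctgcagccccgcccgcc
Lasp1: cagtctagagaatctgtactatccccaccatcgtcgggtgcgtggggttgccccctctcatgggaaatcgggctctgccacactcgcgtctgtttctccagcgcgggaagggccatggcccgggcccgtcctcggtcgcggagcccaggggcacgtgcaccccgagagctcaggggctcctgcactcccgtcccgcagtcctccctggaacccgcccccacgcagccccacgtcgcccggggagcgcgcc
Cbx8: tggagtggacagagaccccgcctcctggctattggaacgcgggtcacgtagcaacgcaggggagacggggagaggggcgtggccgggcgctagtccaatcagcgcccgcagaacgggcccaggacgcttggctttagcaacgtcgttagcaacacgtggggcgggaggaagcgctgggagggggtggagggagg
The Ehbp1l1 stretch held 1 CTCF core match, at base 70, and the Lasp1 and Cbx8 stretches held no match to any of the motifs. Over 32851 RefSeq promoters cut to 250 bases, 1.74% held a CTCF core match, 3.17% a FOXA match, 0.384% an HNF4 match and 6.75% an AP-1 match. The Cbx8 stretch has only 194 bases, so these shares come from longer stretches than that one. The other stretches are windows of 200 bases on the plus strand from hubs that lack a transcription start. In each hub the window with the most matches was taken, so that the presence of a match is fixed by the choice. They lie between Malat1 and Neat1 (chr19:5811781-5811980), upstream of Myc (chr15:61532923-61533122) and beside Cbx8 (chr11:119057328-119057527).
Between Malat1 and Neat1: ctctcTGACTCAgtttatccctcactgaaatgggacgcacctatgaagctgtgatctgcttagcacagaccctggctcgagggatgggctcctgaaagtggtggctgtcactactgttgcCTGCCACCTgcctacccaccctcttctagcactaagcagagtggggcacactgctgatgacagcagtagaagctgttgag
Upstream of Myc: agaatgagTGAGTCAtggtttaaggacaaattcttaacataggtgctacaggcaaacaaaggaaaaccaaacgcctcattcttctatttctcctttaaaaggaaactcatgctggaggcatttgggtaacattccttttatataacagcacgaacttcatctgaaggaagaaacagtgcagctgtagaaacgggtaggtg
Beside Cbx8: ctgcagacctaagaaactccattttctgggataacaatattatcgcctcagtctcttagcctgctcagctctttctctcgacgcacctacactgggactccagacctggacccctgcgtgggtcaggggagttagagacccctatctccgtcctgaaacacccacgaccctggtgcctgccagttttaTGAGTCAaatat
The window between the noncoding RNA genes held an AP-1 match at base 6 and a CTCF core match at base 121. AP-1 matches stood at base 9 of the Myc window and at base 189 of the window beside Cbx8. In the middle 200 bases of all 30542 anchors, 12.3% held an AP-1 match, 1.03% a CTCF core match, 5.26% a FOXA match and 0.409% an HNF4 match.

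Hub anchors had a median of 96 loops summed, with quartiles of 86 and 113 and a highest value of 228, against a median of 19 over all anchors. These counts chose the members and are given as a description. Counts fell off without a gap at the limit. There were 34 anchors with exactly 80 loops and 41 with exactly 79. The 159 anchors with 80 to 84 loops had a median width of 4.42 kb and 66.7% of them lay at a transcription start, and the 212 anchors with 75 to 79 loops had a median width of 3.84 kb with 57.1% at a start. At the other end, 376 hubs had 100 or more loops, 60 had 150 or more and 10 had 200 or more.

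**Figure D1:**
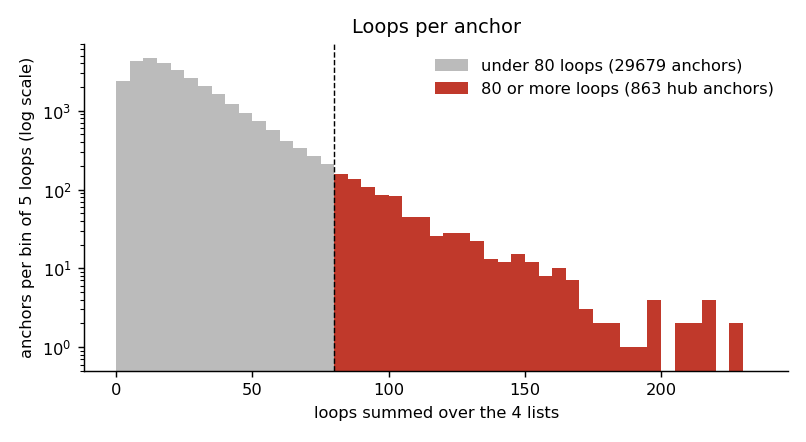
Number of anchors (log scale) by loops summed over the 4 lists, in bins of 5 loops, with the limit of 80 as a dashed line. The 863 hub anchors, in red, continue the slope of the other 29679 anchors with no gap at the limit and thin out to a few anchors above 200 loops.

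All 863 hubs had loops in each of the 4 lists, and the fewest for any hub in a list was 9. Median loops per hub were 30, 25, 20 and 22 in the order of the lists, against 6, 5, 4 and 4 over all anchors. Although they were 2.83% of anchors, hubs held 11.7% of all loop ends. Loops with a hub at one or both ends took 18.4% of either FOXA1 list, 19.4% of HNF4G loops in liver mets and 21.5% in tumor. Loops are deposited with a value that is read here as −log10 of an adjusted p, on the evidence of the values alone, and that ends at 20. Only 328, 114, 76 and 111 loops in the same order stood at this highest value, and 71.3%, 73.7%, 77.6% and 82.0% of them touched a hub. Most loops had low values, and loops were counted whatever their value. A value of 2 or more was reached by 18.5%, 16.3%, 15.1% and 15.2% of loops with a hub. Among loops without a hub it was 7.26%, 5.93%, 5.30% and 5.17%.

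The 10 hubs with the most loops lay on 4 chromosomes, and 5 of them lay in the same neighbourhood of chromosome 19. The leading hub (chr19:5723745-5732662) holds starts of Ehbp1l1, which codes for an EH domain-binding protein of membrane traffic, and of Fam89b and Sssca1. For FOXA1 it had 70 loops in liver mets and 55 in tumor, and for HNF4G 49 and 54. Its 109 partners included 26 that it met in all 4 lists, and 80 of the partners were hubs themselves. Ltbp3 (chr19:5740949-5747190), which codes for a binding protein of latent TGF-beta, had 65, 48, 49 and 48 loops in the same order.

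Both anchors at Neat1, the noncoding RNA that builds paraspeckles, were among the 10. The one at chr19:5839184-5851427 had 78, 58, 39 and 50 loops in the order of the lists, and the one at chr19:5826451-5838383 had 74, 57, 42 and 44. Between Neat1 and Malat1, the noncoding RNA of nuclear speckles, an intergenic hub without any annotated start (chr19:5808251-5819047) had 70, 55, 46 and 46 loops. Its motif window is the one shown above.

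On chromosome 15, the hub at Cdc42ep1, an effector of the Cdc42 GTPase, and Lgals2, a galectin (chr15:78841676-78857967), had 70, 64, 40 and 44 loops. Lasp1 (chr11:97798516-97815020) codes for an actin-binding LIM and SH3 protein and had 70, 53, 41 and 51 loops. At C1qtnf1 (chr11:118422530-118439960), which codes for a secreted C1q-related protein, there were 67, 55, 37 and 52 loops. Of these, 42, 28, 22 and 33 spanned 500 kb or more. The hub at Tk1, the thymidine kinase of dividing cells, and Afmid (chr11:117821995-117831811) had 80, 49, 34 and 46 loops, and 80 was the highest count of any anchor in a list. Cirbp (chr10:80157324-80168793), which codes for a cold-inducible RNA-binding protein, had 58, 53, 41 and 53 loops. The 10 leading hubs ranked within the first 39 anchors of every list, and 9 of them were 8 kb or wider.

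**Figure D2:**
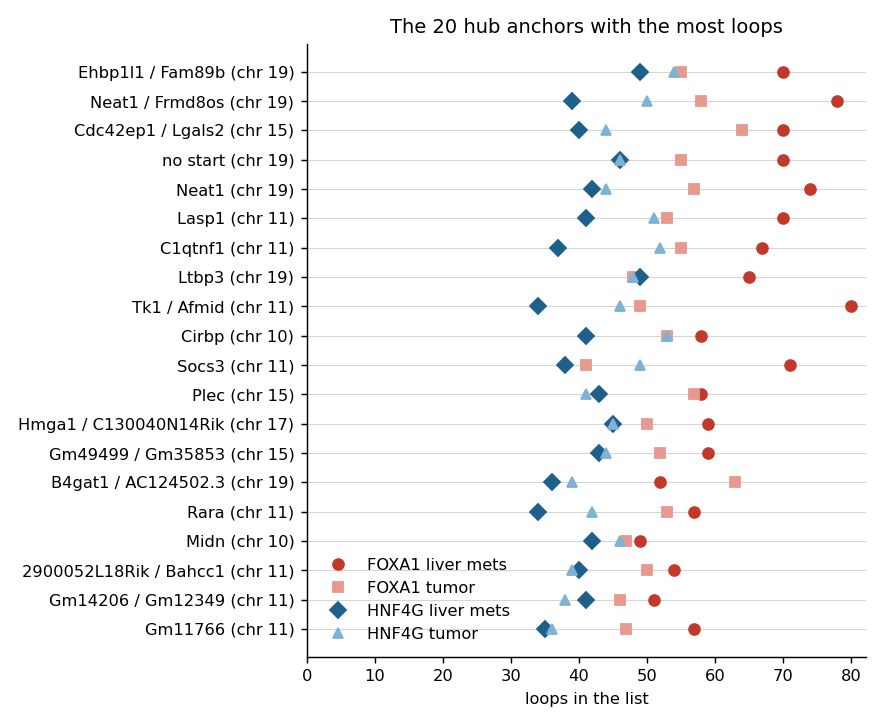
Loops in each of the 4 lists (horizontal axis, counts without error bars because each group has 1 list) for the 20 hub anchors with the most loops, named by their genes and chromosome. Counts are not scaled by the size of the lists, which runs from 76323 to 125623 loops, and the largest list, FOXA1 liver mets, has the highest count at 19 of the 20 hubs, all but B4gat1.

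Hub anchors were wide. Their median width was 5.20 kb (95% interval of the median 5.01 to 5.36), against 2.31 kb (2.30 to 2.32) for the other anchors, and the interquartile range ran from 3.78 to 7.0 kb. Only 0.151% of anchors under 2 kb were hubs, 3.37% of those from 3 to 4 kb, 28.9% of those from 6 to 8 kb and 57.1% of those of 8 kb or more. Not every hub was wide, however, and 15 were under 2 kb. The narrowest hub, 1.249 kb wide, was that of Dlx3, a homeobox factor (chr11:95119645-95120893), with 12, 15, 21 and 33 loops. A wider anchor covers more sequence in which read pairs can fall, and the part of width in the loop counts was not tested. Over all 30542 anchors, the Spearman correlation of loops summed with width was 0.337.

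Neighbours were many. A hub had a median of 50 other anchors (95% interval 49 to 52) with midpoints within 500 kb, against 24 (23 to 24) for the other anchors, and 79.8% of hubs but 16.8% of the others had 40 or more. The Spearman correlation of loops summed with this number was 0.724 over all anchors and 0.266 over the hubs, with loops and neighbours taken from the same lists. Both features together sorted the anchors further. Among anchors of 5 kb or more, 0.264% were hubs where fewer than 20 neighbours lay within 500 kb, and 86.4% were hubs where there were 60 or more. Among anchors under 3 kb the same shares were 0 and 12.1%.

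**Figure D3:**
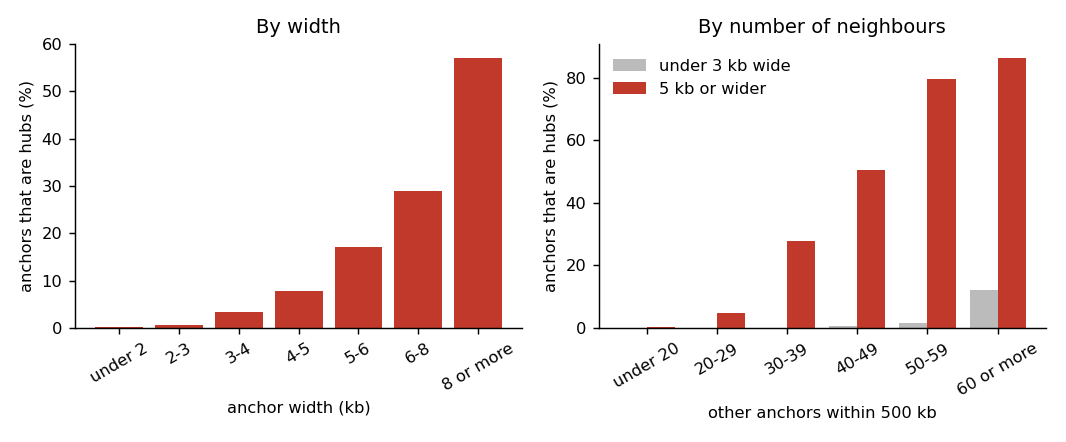
Share of anchors that are hubs (%), by anchor width in kb (left) and by the number of other anchors within 500 kb (right, for anchors under 3 kb in grey and of 5 kb or more in red). The share reaches 57.1% at widths of 8 kb or more, and in the range of most neighbours it is 86.4% for wide and 12.1% for narrow anchors.

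Anchors with more neighbours have more pairs that can be listed. The loops expected at each anchor were therefore calculated from the share of all anchor pairs that each list held at a given span. No anchor was expected to have 80 or more loops by this measure, with a highest expected value of 76.7. Hubs had a median of 50.2 expected loops and were observed at 2.01 times the expected number, against 0.851 times for the other anchors. All hubs lay above 1, from 1.11 to 5.53, and 768 (89.0%) reached 1.5, as did 10.9% of the others. Because the observed counts chose the hubs, this gap is a description. Over the hubs, the ratio of observed to expected loops had a Spearman correlation of 0.701 with width.

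The highest ratio of observed to expected loops, 5.53, belonged to Myc, the growth-promoting transcription factor (chr15:61982799-61989222). This hub had 35, 30, 25 and 21 loops where 20.1 were expected in all, with 29 anchors within 500 kb. The next, at 4.70, was an anchor 448.2 kb from the start of Myc that overlaps exons of the noncoding genes Gm49498 and D030024E09Rik (chr15:61530573-61537191), with 33, 28, 16 and 9 loops. With 16 anchors within 500 kb it had the fewest neighbours of any hub. The 2 Myc hubs were joined in all 4 lists, over 452 kb, with values of 20, 20, 12.0 and 3.79 in the order of the lists. Hmga1, which codes for an architectural chromatin protein, came next (chr17:27552172-27566646), with 59, 50, 45 and 45 loops at 4.62 times the expected number.

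Among the lowest ratios were those of hubs in crowded regions. An intergenic hub beside Ppp1r27 (chr11:120554179-120556780) had 29, 22, 17 and 13 loops at 1.11 times the expected number, with 79 anchors within 500 kb. Sirt7, a sirtuin deacetylase (chr11:120623906-120625931), had 23, 23, 18 and 19 loops at 1.13 times. Both were under 3 kb wide.

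Hubs were joined to each other and shared partners between lists. Of the 40689 distinct loops with a hub, 11.8% were in all 4 lists, against 4.01% of the 208511 without one. At spans of 20 to 100 kb, 98.2% of the 1449 pairs of hubs were joined in some list and 50.03% in all 4, whereas 70.6% of pairs without a hub were joined in some list and 4.97% in all 4. At 100 to 500 kb, 9.21% of pairs of hubs and 0.378% of pairs without a hub were in all 4. The median hub met 54 distinct partners, 36.6% of those available within 2 Mb, and 23.3% of its partners were hubs. The loop counts that define the hubs include these loops, so the figures describe the hubs and test nothing. Median spans with a hub were 196, 165, 136 and 156 kb in the order of the lists, and those without a hub were 157, 136, 109 and 125 kb.

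Transcription starts were frequent at hubs. Of 863 hubs, 604 (70.0%, 95% Wilson interval 66.8 to 73.0) had an annotated start within 2 kb, as had 45.2% of all anchors and 44.5% of the anchors that were not hubs. The difference was 25.5 percentage points (Newcombe 95% interval 22.3 to 28.5). A protein-coding start was present at 538 hubs (62.3%), against 38.4% of all anchors, and 131 hubs (15.2%) held 2 or more protein-coding genes, against 4.76% of the others. Wide anchors hold more starts, and within ranges of width the Mantel-Haenszel odds ratio of a start at a hub fell from 2.91 (2.51 to 3.37) to 1.81 (1.54 to 2.12). Within ranges of both width and neighbours within 500 kb, a choice added after seeing the data, it was 1.31 (1.08 to 1.58, over 845 hubs). Anchors are not replicates, and these intervals treat them as independent. The pooled ratios also hide a smaller gap among wide anchors. From 3 to 4 kb, 72.1% of hubs and 51.6% of other anchors had a start. These shares were 63.3% and 58.4% from 5 to 6 kb, and 67.8% and 64.6% from 6 to 8 kb. At 8 kb or more they were 77.0% and 71.2%. Of the hubs, 461 were 5 kb or wider.

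The remaining 259 hubs (30.01%) had no start within 2 kb. Of these, 75 overlapped an exon, 59 lay in introns and 125 were intergenic. Their median distance to a protein-coding start was 14.6 kb, and 107 lay within 10 kb and 44 over 50 kb away. They resembled promoter hubs in size, with a median width of 5.22 kb against 5.19 kb and a median of 93 against 97 loops summed. The one with the most loops in FOXA1 liver mets lay 4.49 kb from Krt19 (chr11:100153155-100161995) and had 71, 36, 28 and 28 loops. It was singled out after its values were seen.

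GC content was higher at hubs, with a median of 53.2% (95% interval 52.7 to 53.5) against 47.9% (47.9 to 48.0). This held in 6 of 6 ranges of width and presence of a start, for anchors of 3 kb or more. The FOXA motif was sparser, with 0.126 matches per kb at hubs against 0.182 at the other anchors, and was lower at hubs in all 6 ranges. From 3 to 5 kb it was 0.104 against 0.166 with a start and 0.132 against 0.198 without one. Matches to the HNF4 motif were 0.0155 and 0.0169 per kb, and to the AP-1 motif 0.364 and 0.437 per kb. The AP-1 rates were 0.328 and 0.327 at anchors with a start, and 0.451 and 0.534 without one. Within the ranges of width they were lower at hubs, except at 8 kb or more without a start, with 0.484 against 0.472. The CTCF core was denser at hubs, with 0.0544 against 0.0399 matches per kb, but at anchors of 5 to 8 kb with a start it was 0.0467 against 0.0495. The FOXA and AP-1 letters are rich in A and T, GC content moved with these rates, and its part was not tested. As hubs are wide, 46.8% of them held at least 1 FOXA match, against 36.3% of the other anchors.

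Hubs crowded on a few chromosomes. Chromosome 19 held 198, which was 15.3% of its 1293 anchors (Wilson 95% interval 13.5 to 17.4), and chromosome 11 held 194, or 8.05% of 2410 (7.03 to 9.20). Together they had 45.4% of hubs and 12.1% of anchors. Chromosomes 15, 17 and 6 followed with 82, 80 and 60 hubs. Chromosome 7 had 10 hubs among 1861 anchors (0.537%), and shares were lower still on chromosomes 9 (6 of 1482), 5 (8 of 2010), 13 (3 of 1322), 18 (1 of 765) and 14 (1 of 939), with none among 295 on chromosome X. The number of neighbours differs between chromosomes, so the share was also taken among anchors with 40 or more others within 500 kb. It was then 33.1% on chromosome 19, 18.6% on chromosome 11, 17.3% on chromosome 10, 1.76% on chromosome 7, 0.800% on chromosome 5 and 0 of 92 on chromosome 9. Among anchors of 5 kb or more it was 63.6% on chromosome 19, 47.5% on chromosome 11, 10.2% on chromosome 7 and 5.38% on chromosome 5. Hubs of a chromosome share loops with each other, so these intervals are too narrow.

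**Figure D4:**
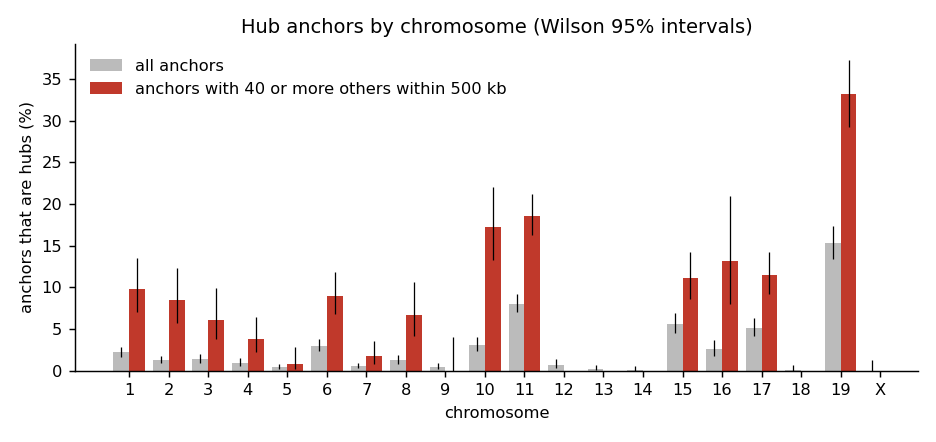
Share of anchors that are hubs (%) on each chromosome, for all anchors (grey) and for anchors with 40 or more others within 500 kb (red, left out for chromosomes with fewer than 50 of them), with Wilson 95% intervals as lines. Chromosomes 19 and 11 are highest on both counts, and chromosomes 5, 7 and 9 are near 0 even among crowded anchors.

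When hubs with midpoints within 200 kb of the next were joined, 220 neighbourhoods resulted, 116 of them with 1 hub. The 51 neighbourhoods with 5 or more hubs held 596 (69.1%). The largest (chr19:5365247-6420514) had 64 hubs among 91 anchors and covers the genes from Banf1 to Nrxn2, with Fosl1, Rela, Ehbp1l1, Malat1, Neat1 and Men1 among them. Next were regions of 47 hubs each, one with Bahcc1, Actg1 and Fasn (chr11:119787903-121088532) and one with Cdk2ap2 and Kdm2a (chr19:3628649-4626693). Another (chr10:79852437-80941621) had 32 hubs among 88 anchors, including Cirbp and Stk11.

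Of the 10785 protein-coding genes with an anchor at a start, 609 (5.65%) had a hub there. For a gene with several such anchors the one with the most loops was counted. Simple epithelial keratins and junction genes stood at hubs in 9 of 16 cases. Krt18 and Krt8, partners in the keratin filaments of simple epithelia, had 57, 43, 35 and 36 loops (chr15:102021806-102035809) and 31, 27, 20 and 23 loops (chr15:102002125-102008391). They were joined to each other in all 4 lists over 23.5 kb, with values of 20, 20, 8.45 and 10.1. Krt18 was also joined, with a value of 20 in each list, to the hub of the noncoding genes Gm49499 and Gm35853 705 kb away (chr15:101314431-101333022). Krt19, a ductal keratin, had 61, 42, 27 and 30 loops (chr11:100143925-100152377), and Krt7 and Krt20 had 81 and 89 summed. Cdh1, the E-cadherin of adherens junctions, had 41, 29, 19 and 28 (chr8:106605174-106615599). The plakoglobin gene Jup had 146 summed, the plakophilin gene Pkp3 108 and the tight junction gene Tjp3 121. Epcam, with 44 loops summed, was not a hub. Of 11 mesenchymal transition genes with an anchor 0 were at a hub, which is near the background share, and the highest of them was Tgfb1 with 66.

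AP-1 genes, which code for the dimeric factors that bind the TGANTCA motif, were at hubs in 4 of 9 cases. Fosl1 had 44, 31, 32 and 24 loops (chr19:5443738-5449675), Atf3 had 88 summed, and Junb and Fosb had 85 each. Jund lay just outside with 77, and Jun had 15. None of the 10 FOXA, HNF4, HNF1 and GATA genes was at a hub, which for so few genes is near the background share of 5.65%. Foxa1 had 11, 8, 5 and 6 loops, Foxa2 18, 13, 11 and 9, Hnf4a 7, 5, 5 and 6, and Hnf4g 0, 2, 0 and 1. The genes of the precipitated factors were therefore at 30 and 3 loops summed, against a median of 22 over all protein-coding genes with an anchor. Klf3 (133 summed) and Klf16 (104) were hubs among 11 KLF genes, and Klf5, a KLF factor of epithelia, had 52.

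Growth and signalling genes were counted next. Among 11 pancreatic cancer driver genes, Myc (111) and Arid1a (86), a subunit of the BAF remodeller, were at hubs, and Trp53 (47), Cdkn2a (31) and Smad4 (7) were not. Tk1 (209), Ccnd1 (82) and Ccnd3 (84), the latter pair coding for D-type cyclins, were the hubs among 14 cell cycle genes. Erbb2, a receptor kinase of the EGF receptor family, had 50, 48, 28 and 42 loops (chr11:98411223-98420459). It was the hub among 16 genes of EGF receptor signalling and RAS feedback (6.25%, near the background share of 5.65%). Dusp5 was at 79 and Egfr at 23. Hes1, a target of Notch, had 47, 43, 25 and 35 loops (chr16:30062581-30072353) and was the hub among 6 pancreatic and ductal factor genes. Among 16 genes of chromatin and architecture, 3 were at hubs, among them Cbx8 (165) and the cohesin gene Smc3 (81), and Ctcf (33) and Rad21 (11) were not. Malat1 (129) and Neat1 (225) were hubs among 4 nuclear noncoding RNA genes, as were Rpl10a (109), Rpl3 (100) and Rpl18 (91) among 23 ribosomal protein genes. No hub was found among the 3 hepatocyte, 2 fibroblast and 1 leukocyte genes that had an anchor, which is near the background share.

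Whether an anchor that ranked high in some lists also ranked high in another was then examined. For each list, the 863 anchors with the most loops in the other 3 were chosen and looked up among its own first 863. For FOXA1 liver mets 69.9% were found there (Wilson 95% interval 66.7 to 72.8), for FOXA1 tumor 73.6% (70.5 to 76.4), for HNF4G liver mets 70.1% (67.0 to 73.1) and for HNF4G tumor 68.3% (65.1 to 71.3). All 863 chosen in this way had more loops than the median anchor of the list left out, in each of the 4 cases. The lists share their anchors and so their widths and neighbours. Over all anchors, Spearman correlations between lists ran from 0.756 to 0.811, and over the hubs from 0.412 to 0.576.

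Agreement was compared by factor and by line. The first 863 anchors of the FOXA1 lists and of the HNF4G lists shared 611 (70.8%, 67.7 to 73.7), and those of the liver mets lists and of the tumor lists shared 658 (76.2%, 73.3 to 78.96). Between single lists the number shared was highest for the FOXA1 pair, with 584 (67.7%), and lowest for FOXA1 liver mets and HNF4G tumor, with 518 (60.02%). FOXA1 tumor and HNF4G liver mets, which differ in factor and line, shared 565 (65.5%), as many as the HNF4G pair. Of the first 10 anchors, FOXA1 liver mets and FOXA1 tumor shared 6 and the HNF4G lists shared 3. Pairs of lists from different factors shared 4 or 5. The first anchor of each list was Tk1 in FOXA1 liver mets, Cdc42ep1 in FOXA1 tumor, Ehbp1l1 in HNF4G liver mets and Cbx8 in HNF4G tumor. Cbx8 ranked 271, 86 and 191 in the lists before HNF4G tumor, while Ehbp1l1 ranked 8, 8 and 2 outside its own list.

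Hubs were last compared between lines and between factors. Each count was divided by the size of its list, with 0.5 loops added, so that a ratio of 1 stands for an equal share of each list. Their 95% intervals are exact (Clopper-Pearson), conditional on both counts together. The FOXA1 lists set liver mets against tumor, and the median ratio over the hubs was 0.987. In this comparison 15 hubs were 1.5-fold or more higher in liver mets (background 8.69% of 8018 anchors with 20 or more loops in both lists together) and 24 were lower (background 8.24%). These were 1.74% and 2.78% of the hubs. Anchors with fewer loops have wider ratios by counting error alone, and among the 1233 anchors with 60 to 79 loops summed the shares were 5.92% and 5.52%. The interval left out 1 for 0.927% of hubs and 0.923% of all anchors compared.

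The highest FOXA1 ratio of liver mets over tumor was 1.79 (1.07 to 3.15), at an intergenic hub 21.6 kb from Sec14l1 (chr11:117088901-117093554) with 48 and 22 loops. Snx32, a sorting nexin (chr19:5494738-5498531), and Atg2a, which codes for a lipid transfer protein of autophagy (chr19:6255251-6257886), each had 38 and 18 loops, a ratio of 1.73 with an interval that held 1. Lowest was an anchor that overlaps an exon of Pitpnm1 (chr19:4104136-4106122), with 18 and 34 loops and a ratio of 0.445 (0.233 to 0.799). Clic3, an intracellular chloride channel gene, shares its hub with Paxx (chr2:25457937-25462000) and had 17 and 28 loops, a ratio of 0.509 (0.258 to 0.952). Dcxr and Cbr2, which code for carbonyl reductases (chr11:120728534-120730431), had 17 and 26, a ratio of 0.547 (0.276 to 1.04). The extremes of 863 ratios were picked by their values, and their intervals are not adjusted for this.

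For HNF4G, ratios below 1 were the more frequent at hubs. The median ratio of liver mets over tumor was 0.913, against 0.977 over all 3991 anchors compared. There were 17 hubs 1.5-fold or more higher in liver mets (background 6.64%) and 94 lower (background 14.2%), or 1.97% and 10.9% of the hubs. Among the anchors with 60 to 79 loops summed these shares were 5.53% and 11.9%. When the ratios were centred on the median of the hubs, 43 were higher and 53 lower. The interval left out 1 at 17 hubs (1.97%), each lower in liver mets, against 2.33% of all anchors compared.

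Cbx8 and its surroundings stood out. Cbx8 codes for a chromobox subunit of Polycomb repressive complex 1, and its hub (chr11:119037193-119043809) had 69 loops in HNF4G tumor, 25 in HNF4G liver mets, 34 in FOXA1 liver mets and 37 in FOXA1 tumor. The HNF4G ratio of liver mets over tumor was 0.359 (0.215 to 0.567), and the FOXA1 ratio was 0.763 (0.464 to 1.25). An intergenic hub 14.9 kb from the Cbx8 start (chr11:119055858-119058141), whose window is shown above, had 49 loops in HNF4G tumor and 16, 20 and 20 in HNF4G liver mets, FOXA1 liver mets and FOXA1 tumor. Its HNF4G ratio of 0.326 (0.169 to 0.571) was the lowest of all hubs. The third lowest, 0.422 (0.221 to 0.749), was that of Nptx1, a neuronal pentraxin gene (chr11:119546327-119547930), with 40 loops in HNF4G tumor and 17, 16 and 18 in the other lists. HNF4G tumor was the highest list at each of these 3 hubs. No test of the difference between the FOXA1 and HNF4G ratios was possible.

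Many of the contacts of Cbx8 in HNF4G tumor were long. In HNF4G tumor 39 of its 69 loops spanned 500 kb or more, against 10 of 25 in HNF4G liver mets. In the FOXA1 lists it was 18 of 34 in liver mets and 16 of 37 in tumor. Median spans of the Cbx8 loops were 597 kb in HNF4G tumor and 175 kb in HNF4G liver mets. For FOXA1 they were 617 kb in liver mets and 259 kb in tumor. Of its 96 partners, 33 were met in HNF4G tumor and in no other list, against 13, 9 and 4 for the lists before it. At the intergenic hub beside it 27 loops in HNF4G tumor spanned 500 kb or more, against 3, 6 and 9 in HNF4G liver mets, FOXA1 liver mets and FOXA1 tumor. Both hubs were picked by their low HNF4G ratios, so higher counts in HNF4G tumor follow in part from the choice. Cbx8 met C1qtnf1, 609 kb away, in all 4 lists, with a value of 20 in HNF4G tumor, 6.39 in HNF4G liver mets, 1.84 in FOXA1 liver mets and 9.0 in FOXA1 tumor. The loop from Cbx8 to the intergenic hub beside it, over 16.5 kb, had a value of 20 in HNF4G tumor and of 0.320, 0.243 and 0.120 in the others. The 14 hubs of this neighbourhood (chr11:119037193-119547930) had 483 HNF4G loops in tumor and 283 in liver mets, a ratio of 0.573 (0.493 to 0.664), the lowest among the 51 neighbourhoods with 5 or more hubs. Their FOXA1 ratio was 0.894 (0.772 to 1.03). The sums include Cbx8, the hub beside it and Nptx1, which were picked by their low HNF4G ratios, so the low HNF4G ratio follows in part from that choice. Loops between members count at both ends in these sums, so these intervals are too narrow.

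**Figure D5:**
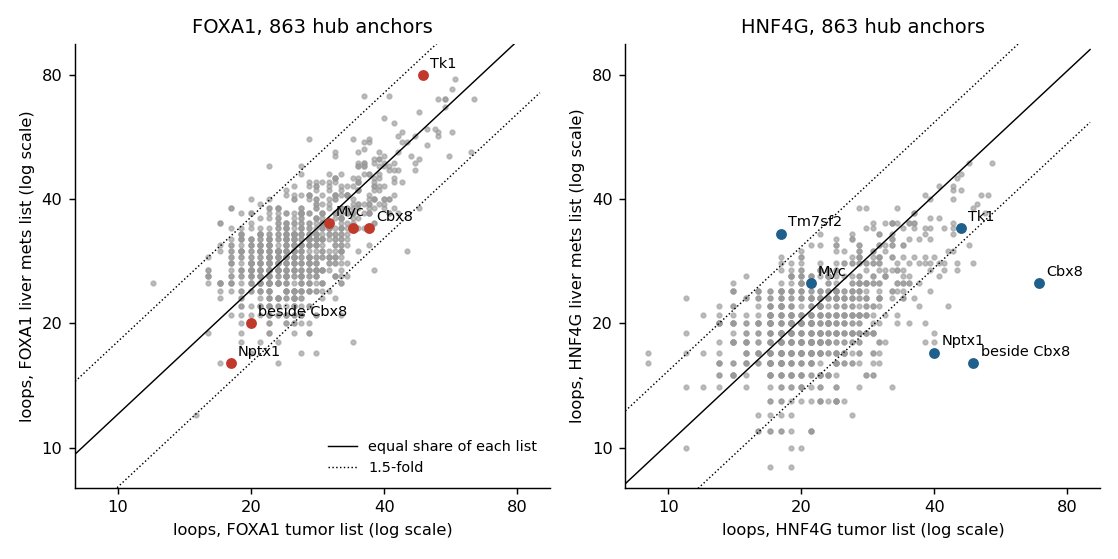
Loops of each of the 863 hub anchors in the tumor list (horizontal, log scale) and in the liver mets list (vertical, log scale) of the same factor, FOXA1 on the left and HNF4G on the right. Points on the solid line have an equal share of both lists and dotted lines mark 1.5-fold. Cbx8, the hub beside it and Nptx1 lie far to the tumor side for HNF4G, and for FOXA1 all 3 lie between the lower dotted line and the solid line.

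In the other direction, the 3 highest HNF4G ratios of liver mets over tumor were at hubs with fewer tumor loops than the hub median of 22. A low tumor count raises this ratio, so this follows in part from the choice by ratio. An intergenic hub 133.7 kb from Trib1, a pseudokinase gene (chr15:59782371-59788092), had 23 and 11 loops in liver mets and tumor, with a ratio of 1.997 (0.957 to 4.64). An intergenic hub 24.2 kb from Scd1, which codes for stearoyl-CoA desaturase (chr19:44377178-44382475), had 17 and 9, a ratio of 1.80 (0.778 to 4.70). At Tm7sf2, a gene of sterol synthesis, and Vps51 (chr19:6065833-6068551), the counts were 33 and 18, a ratio of 1.77 (0.980 to 3.38). The interval held 1 at all 3.

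The factors were then set against each other within a line. In the tumor line the median ratio of FOXA1 over HNF4G was 0.864 over hubs and 0.887 over all 5191 anchors compared. Here 11 hubs were 1.5-fold or more higher for FOXA1 (background 8.28%) and 120 were lower (background 16.2%), or 1.27% and 13.9% of the hubs, against 5.84% and 17.5% of the anchors with 60 to 79 loops. Centred on the median of the hubs they were 32 and 56. In the liver mets line the median ratio was 0.925 over hubs and 0.926 over all 6499 anchors compared. There 27 hubs were higher for FOXA1 (background 9.32%) and 75 lower (background 13.7%), or 3.13% and 8.69% of the hubs, against 6.08% and 12.2% of the anchors with 60 to 79 loops. Centred, they were 42 and 34. The ratios for the lines share no list. Of the hubs 1.5-fold or more lower for FOXA1, 120 in tumor and 75 in liver mets, 16 were lower in both lines. Of the 11 and 27 higher hubs, 0 were higher in both. The overlap of unrelated ratios and the same counts over all anchors were not worked out, so these counts are a description. Over the hubs the Spearman correlation of the ratios in the lines was 0.103.

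Hubs with relatively more FOXA1 loops in tumor were led by the anchor upstream of Myc, whose motif window is shown above, with 28 FOXA1 and 9 HNF4G loops in tumor, giving a ratio of 2.199 (1.05 to 5.49). In liver mets it had 33 and 16, a ratio of 1.26 (0.686 to 2.49). The hub near Scd1 followed, with 23 and 9 loops in tumor and a ratio of 1.81 (0.835 to 4.60), and then E2f2, a cell cycle transcription factor (chr4:136171600-136175906), with 26 and 11 and a ratio of 1.69 (0.827 to 3.88). In liver mets the highest was Gm5122, an uncharacterised gene (chr9:61010497-61018304), with 38 FOXA1 and 10 HNF4G loops and a ratio of 2.28 (1.16 to 5.32). An intergenic hub 11.4 kb from Ppp1r32 (chr19:10494374-10498966) had 34 and 9, a ratio of 2.26 (1.10 to 5.57), and Gm44275 (chr6:135321018-135326457) had 41 and 12, a ratio of 2.06 (1.10 to 4.44).

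Relatively more HNF4G loops in tumor were found at Pacsin1, a gene of membrane bending in neurons (chr17:27654699-27658265), with 12 FOXA1 and 35 HNF4G loops and a ratio of 0.258 (0.119 to 0.496). The hub beside Cbx8 followed at 0.304 (0.168 to 0.513) and Nptx1 at 0.335 (0.178 to 0.589). In liver mets the lowest ratios were those of Dlx3, with 12 and 21 loops and 0.361 (0.159 to 0.756), Fgf8, which codes for a fibroblast growth factor (chr19:45742111-45746053), with 17 and 23 loops and 0.463 (0.230 to 0.899), and the exon hub of Pitpnm1, with 18 and 24 loops and 0.469 (0.238 to 0.896). Dlx3 and Fgf8 were low in tumor too, at 0.339 (0.168 to 0.631) with 15 and 33 loops and at 0.493 (0.263 to 0.889) with 20 and 30. At both genes the HNF4G lists therefore had more loops than the FOXA1 lists in both lines although the HNF4G lists were the smaller ones.

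Promoter hubs and hubs without a start were compared in the same way. For HNF4G, the median ratio of liver mets over tumor was 0.886 at the 604 promoter hubs and 0.977 at the 259 without a start. The median ratio of FOXA1 over HNF4G in tumor was 0.846 and 0.896, and in liver mets 0.907 and 0.953. Chromosomes with 10 or more hubs were also compared. Among these, the median HNF4G ratio of liver mets over tumor was lowest on chromosome 10 (0.796, 50 hubs) and chromosome 11 (0.841, 194 hubs). It was 0.932 on chromosome 19 and 0.977 on chromosome 6. The same medians for FOXA1 were 0.938, 0.998, 0.938 and 0.995.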

How the data were processed

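Loop lists were used as the authors deposited them. Reads had been mapped to mm10 by HiC-Pro 3.1.0 (DpnII fragments, duplicates removed), and loops were called with hichipper. The value per loop deposited by the authors was taken to be −log10 of an adjusted p, from the values alone, and a score for display, also deposited, follows from it and was not used. How replicates were joined is not given in the sources used here. Loops of 5 kb to 2 Mb were counted at each end per anchor and list and summed. Anchors of the 4 lists were identical or did not overlap. Starts came from GENCODE M21 and sequence from GRCm38.p6 (RefSeq). Expected loops used 17 ranges of span. Spearman correlations are descriptions over anchors that share lists. Named hubs were the 10 with the most loops, the 3 highest and lowest of each ratio and of observed over expected loops, and those at a start of a listed gene. The hubs, gene lists and alternatives were chosen with earlier results of these data known. Python 3.11.15, numpy 2.4.6, pandas 2.3.3, scipy 1.17.1, statsmodels 0.14.6 and pysam 0.24.0 were used, and scripts were tested on simulated data. Read depth is unknown, so precision was set by counting loops only. A few items that these rules name are not reported here.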

Additional observations from a re-analysis of the deposited data

How the results depend on the processing

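No paired analysis was possible because each group had 1 list covering both replicates, and for the same reason no replicate could be left out. With a limit of 100 loops 376 hubs remained, with 74.2% at a start, a median width of 6.06 kb and a ratio of neighbour medians of 2.21 (2.08 at 80 loops). From loops with a value of 2 or more, 541 of the 863 hubs were among as many leading anchors, and the shares found in a list left out were 59.9%, 63.3%, 55.9% and 53.2% in the order of the lists. Loops of 20 kb or more left 616 hubs, with 73.1% at a start. Scaling the lists gave 881 hubs, 844 of them shared. Merging anchors within 5 kb gave 668, with a median width of 14.6 kb, and only 466 of these held a hub anchor. Before merging, 71.6% of hubs had another anchor within 5 kb, against 35.1% of the other anchors. The share at a start was 62.5% for starts inside the anchor and 62.3% for protein-coding starts. The ratio of neighbour medians within 100 kb was 2.33. The difference in starts between hubs and other anchors kept its sign and stayed between 24.6 and 29.3 points in these alternatives.

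Counts past a fold moved most. At 2-fold, hubs higher and lower in liver mets were 0 and 1 for FOXA1 and 0 and 9 for HNF4G, and those higher and lower for FOXA1 over HNF4G were 1 and 24 in tumor and 5 and 8 in liver mets. Centred on the hub median they were 43 and 53 for HNF4G, 32 and 56 for the factors in tumor and 42 and 34 in liver mets. Loops of 20 kb to 1 Mb gave 40 lower for FOXA1, 30 higher for HNF4G and 18 higher for FOXA1 over HNF4G in tumor. Scaling by expected loops kept all 8 counts within 1.5 times. The cause of these moves was not tested.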
